A study of Mus musculus with 5 samples.

Results

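Freshly isolated lung group 2 innate lymphoid cells (ILC2s) of mice that carried a tumour for 2 weeks were compared, gene by gene, with those of mice that carried it for 3 weeks. Members were chosen by transcripts: a barcode was kept with at least 200 genes, under 5% mitochondrial counts, at least 1 UMI (unique molecular identifier, 1 counted RNA molecule) of *Gata3* or *Il1rl1*, and UMIs of at most 1 of 8 genes of the T lineage (*Dntt*, *Ptcra*, *Arpp21*, *Myl10*, *Ly6d*, *Rag1*, *Cd3d* and *Cd3e*). This gate held 2344 cells, 1762 of week 2 and 582 of week 3, of 3691 barcodes in these 2 libraries and 18628 in the series. The study sequenced single ILC2s of tumour-bearing and naïve mice to follow how their transcription changes while a tumour grows. All mice were WT C57BL/6 females of 4 to 8 weeks of age, with 5 mice per group. TC1 cells, a line derived from lung epithelium and transformed with viral and activated oncogenes, were injected under the skin of the right flank, and the ILC2s came from the lungs and not from the tumour. Cells were sorted as Lin- ST2+ CD127+ Thy1.2+ CD45+ and, in the 2 libraries compared (ta-non-activated), labelled as sequenced without culture.

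There was 1 library for each week and the files do not tell the mice of a group apart, so week and library cannot be told apart, no test was made, and cells of 1 library are not replicates. The other libraries serve as reference points: naïve ILC2s, and ta-activated ILC2s of weeks 2 and 3 that had been cultured for 7 days with IL-2, IL-33 and TSLP. Levels are in CPM, the UMIs of a gene per 1000000 UMIs summed over the gated cells, and a difference is the log2 ratio of week 2 over week 3, above 0 where week 2 was higher. Intervals are exact 95% intervals (Poisson for a level, conditional binomial for a ratio, Clopper-Pearson for a share of cells), and they cover counting error only. The depth of the libraries differed: the gated cells had a median of 16310 UMIs and 3464 genes in week 2 and of 2864 UMIs and 1130 genes in week 3, and 1 UMI was worth 0.0306 and 0.567 CPM. Before the gate, 1601 barcodes of week 3 passed the limits on genes and mitochondrial counts and 36.4% of them were kept, against 96.7% of 1823 in week 2. The library labelled week 2 stood apart from the other library of fresh tumour-associated cells and from the naïve library in its immediate-early genes, which were as low as in the cultured libraries, and its *Il13* lay above the level of the cultured libraries. In other genes it stood apart from the cultured libraries of weeks 2 and 3. Its interferon-induced genes summed to 896 CPM, against 7856 and 10833 CPM there, and its *Il9* was at 12722 CPM, against 110 and 344 CPM. Whether the library labelled week 2 was handled as its label says was not tested, and each difference between the weeks rests on that label. The libraries of weeks 2 and 3 shared 1 gated barcode.

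ILC2s are tissue lymphocytes without antigen receptors that respond to alarmins such as IL-33 and TSLP, released by damaged epithelium, and to lipids and neuropeptides. Once stimulated they make the type 2 cytokines IL-5, IL-13 and, in some settings, IL-9, together with GM-CSF and amphiregulin. Immediate-early genes, among them those of the AP-1, EGR and NR4A transcription factors, are transcribed within minutes of many stimuli, including the handling of tissue, and their short-lived mRNAs disappear soon after. Effector cytokine mRNAs, in contrast, follow later, under factors that include BATF and IRF4.

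The promoters of 4 genes are shown because their genes carried the contrast: those of *Il9* and *Il13*, the cytokine genes that were higher in week 2, and those of *Fos* and *Dusp1*, immediate-early genes that were higher in week 3. Each window runs from 250 bases before to 50 bases after the annotated start (RefSeq, GRCm38.p6), read on the strand of the gene, with matches in capitals to the AP-1 letters TGANTCA, the core of the cyclic AMP response element TGACGT, the GATA letters AGATAA and the EGR letters GCGTGGG, on either strand. *Il9* is at chr13:56482208-56482507 (minus strand), *Il13* at chr11:53634653-53634952 (minus strand), *Fos* at chr12:85473640-85473939 (plus strand) and *Dusp1* at chr17:26508423-26508722 (minus strand).
Il9: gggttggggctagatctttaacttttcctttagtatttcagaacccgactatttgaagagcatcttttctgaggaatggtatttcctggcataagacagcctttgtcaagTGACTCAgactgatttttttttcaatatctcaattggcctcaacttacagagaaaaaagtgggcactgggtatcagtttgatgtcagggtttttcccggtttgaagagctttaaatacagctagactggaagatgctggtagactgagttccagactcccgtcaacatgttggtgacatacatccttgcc
Il13: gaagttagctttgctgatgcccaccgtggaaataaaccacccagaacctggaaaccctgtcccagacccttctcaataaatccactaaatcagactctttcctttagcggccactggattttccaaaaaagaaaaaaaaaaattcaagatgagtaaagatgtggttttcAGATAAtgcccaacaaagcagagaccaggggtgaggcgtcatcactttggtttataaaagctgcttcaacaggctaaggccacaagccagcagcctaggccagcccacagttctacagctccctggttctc
Fos: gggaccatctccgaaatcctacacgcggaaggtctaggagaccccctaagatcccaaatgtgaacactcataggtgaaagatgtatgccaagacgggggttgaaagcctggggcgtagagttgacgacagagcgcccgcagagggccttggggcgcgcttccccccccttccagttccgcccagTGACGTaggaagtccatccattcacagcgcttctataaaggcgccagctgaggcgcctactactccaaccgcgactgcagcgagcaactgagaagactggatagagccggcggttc
Dusp1: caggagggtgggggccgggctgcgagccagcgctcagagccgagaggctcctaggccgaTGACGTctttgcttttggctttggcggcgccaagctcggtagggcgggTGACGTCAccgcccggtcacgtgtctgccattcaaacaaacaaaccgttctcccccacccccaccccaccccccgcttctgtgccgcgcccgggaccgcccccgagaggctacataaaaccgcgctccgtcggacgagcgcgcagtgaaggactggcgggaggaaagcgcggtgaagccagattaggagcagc
The *Il9* window held 1 AP-1 match, the *Il13* window 1 GATA match, the *Fos* window 1 match to the core of the cyclic AMP response element, and the *Dusp1* window that core at 2 places, at one of them on both strands in overlap. Of all 32851 windows of this length, 7.81% held the AP-1 letters, 7.51% the core of the cyclic AMP response element, 11.2% the GATA letters and 5.04% the EGR letters. A match is a description of the letters and not of a site in use.

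Of 14695 genes with a UMI in either library, 6881 had a mean of at least 10 CPM over both libraries and were compared. Of these, 1620 (23.5%) were at least 2-fold higher in week 2 and 1196 (17.4%) at least 2-fold higher in week 3, and 458 (6.66%) and 457 (6.64%) passed 4-fold. Past 16-fold there were 103 genes towards week 3 and 30 towards week 2. The floor of 1.70 CPM in week 3 sets the ratio only of the 9 compared genes without a UMI there. The median log2 ratio of all compared genes was 0.15, and it was 0.25 with TMM factors, so that a value is best read against these shifts. Centred on the median, 1385 genes were at least 2-fold higher in week 2 and 1395 in week 3, and with mitochondrial and ribosomal protein genes left out of the total 1596 and 1570, so that the excess towards week 2 depends on the scaling. Without the gate the genes at least 2-fold higher in week 2 numbered 815, and among the 100 and 506 cells with 2000 to 6000 UMIs the genes at least 2-fold higher in week 3 numbered 734.

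**Figure D1:**
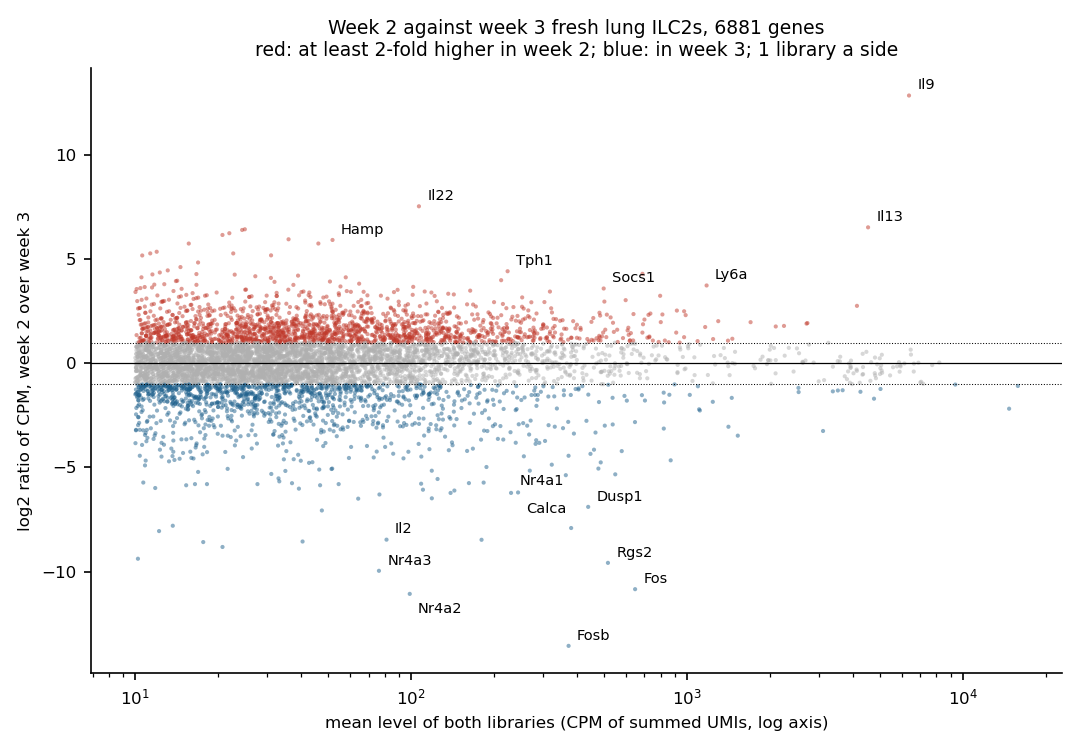
Log2 ratio of CPM, week 2 over week 3 (vertical axis), against the mean CPM of both libraries (horizontal log axis) for the 6881 compared genes, with dotted lines at 2-fold and genes without a UMI in a library drawn at their bound. *Il9* and *Il13* stand alone at high levels on the week 2 side, and *Fosb*, *Fos*, *Rgs2* and the *Nr4a* genes on the week 3 side.

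Genes of type 2 cytokines set the libraries far apart. *Il9* (ENSMUSG00000021538, chromosome 13 from 56479277 to 56482246 of GRCm38), whose product acts on mast cells and on ILC2s themselves, had 416348 UMIs in week 2, or 12722 CPM, and none in week 3, which is at least 7477-fold higher in week 2 against a floor of 3 UMIs in week 3. *Il13* (ENSMUSG00000020383, chromosome 11 from 53631324 to 53634702), the cytokine of mucus production and airway reactivity, was at 8945 CPM in week 2 and 96.4 CPM in week 3, 92.8-fold apart (interval 79.8 to 108). The naïve library resembled week 3, with *Il9* at 0.103 CPM and *Il13* at 61.0 CPM. In the cultured libraries of weeks 2 and 3, *Il13* was at 3591 and 4332 CPM and *Il9* at 110 and 344 CPM, so that *Il9* in fresh week 2 cells lay above every other library.

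*Il5*, the eosinophil growth factor, was at 1236 CPM in week 2 and 235 CPM in week 3, 5.26-fold higher (4.78 to 5.81). *Csf2*, which encodes GM-CSF, was at 1443 and 152 CPM, 9.49-fold higher (8.42 to 10.7). Over all alternative settings the log2 ratio of *Il13* lay between 4.91 and 8.82, that of *Il5* between 1.15 and 4.64 and that of *Csf2* between 2.53 and 5.50. That of *Il9* lay between 8.31 and 15.3. Each upper end came without the gate, where the cells compared were others. With a gate the highest values were 7.355 for *Il13*, 2.672 for *Il5* and 4.354 for *Csf2*. Both ends for *Il9* are bounds against 3 UMIs in week 3, and such a bound moves with the total of week 3. *Il6* had 92.1 CPM in week 2 and no UMI in week 3, at least 54.1-fold higher against the same floor. These 5 genes were the only members of the list of type 2 and growth factor cytokines that were at least 2-fold higher in week 2, of 8 compared. Over all genes compared that share was 23.5%, and 17.4% were at least 2-fold higher in week 3. *Il9* and *Il6*, without a UMI in week 3, were compared only through their level in week 2. The other direction was taken by *Areg* and *Il2*, and *Il2* was compared only through its level in week 3. *Areg*, which encodes the tissue repair factor amphiregulin, was at 353 CPM in week 2 and 1017 CPM in week 3, 2.88-fold higher in week 3 (2.74 to 3.03). Without the gate, where week 3 also held barcodes with 2 or more T-lineage genes, its log2 ratio was 0.57, on the week 2 side. *Il2*, a T cell growth factor also made by ILCs, was at 0.458 and 162 CPM, with 15 and 286 UMIs and a naïve level of 144 CPM. *Csf1* was at 9.04 and 11.3 CPM with a log2 ratio of -0.33 and an interval from -0.98 to 0.41. *Il4*, *Il3* and *Il10* were too low to be compared.

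**Figure D2:**
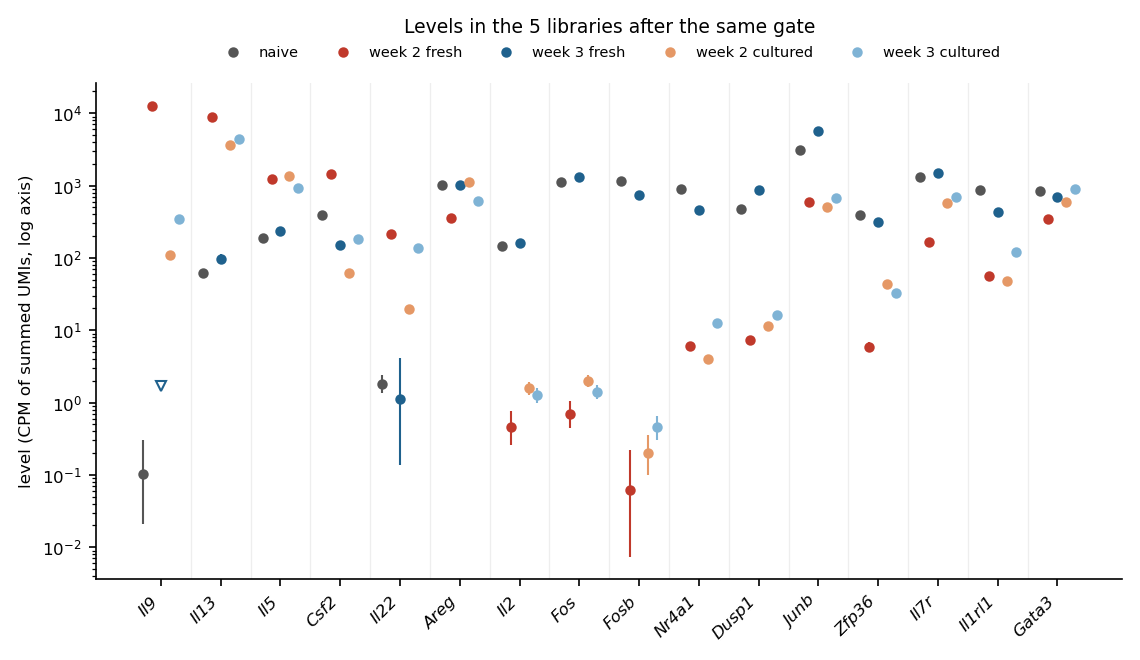
CPM (log axis) of 16 genes in the 5 libraries after the same gate, with exact Poisson intervals that are mostly smaller than the points. The open triangle marks *Il9* in week 3, which had no UMI and is drawn at the level of 3 UMIs. For the immediate-early genes the week 3 fresh points lie with the naïve ones and the week 2 fresh points with the cultured ones.

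The cytokine difference was also present cell by cell at equal depth. After each cell was thinned to 2000 UMIs, which left out 4 cells of week 2 and 66 of week 3, *Il13* had a UMI in 90.3% of 1758 week 2 cells (88.9 to 91.7) and 5.81% of 516 week 3 cells (3.96 to 8.20). Without thinning these shares were 96.0% and 6.01%. *Il9* had a UMI in 39.0% of thinned week 2 cells and in 0 of 516 week 3 cells, which, at 3 cells of the total, allows a share of cells with a UMI of up to 0.581% at this depth. For *Il5* the shares were 61.3% and 16.9%, and for *Csf2* 70.6% and 13.2%. As a background in week 3, the 890 barcodes with 2 or more T-lineage genes, at a median of 6219 UMIs, held 1 UMI of *Il13* and none of *Il9*. The barcodes outside the gate of week 2 were not low in these genes: 11 with 2 or more T-lineage genes held *Il13* at 2572 and *Il9* at 1314 CPM, and 53 without a UMI of either ILC2 gene 3547 and 3525 CPM. Week 2 thus had no cells to give a background, and the part of free RNA in its shares was not tested.

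Within week 2, UMIs of *Il13* were found in most cells and those of *Il9* were more concentrated. In the thinned cells the median was 10 UMIs of *Il13* and 0 of *Il9*, and the tenth of cells with most *Il9* held 66.8% of its UMIs against 37.9% for *Il13*. Of the 686 cells with *Il9*, 94.9% also had *Il13*, against 87.4% of the 1072 cells without *Il9*. *Il5* followed *Il13* more closely, with a UMI in 65.6% of cells with *Il13* and 21.2% of cells without it. *Il22*, a cytokine that acts on epithelium and is usually assigned to ILC3s, was at 212 CPM in week 2 and 1.13 CPM in week 3 (2 UMIs), a 187-fold ratio with an interval from 51.7 to 1544. Its log2 ratio of 7.55 was 1.73 among cells with 2000 to 6000 UMIs and 2.67 with 4000 to 12000. It came from few cells, with a UMI in 3.01% of thinned week 2 cells and a highest count of 71 UMIs in 1 cell.

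**Figure D3:**
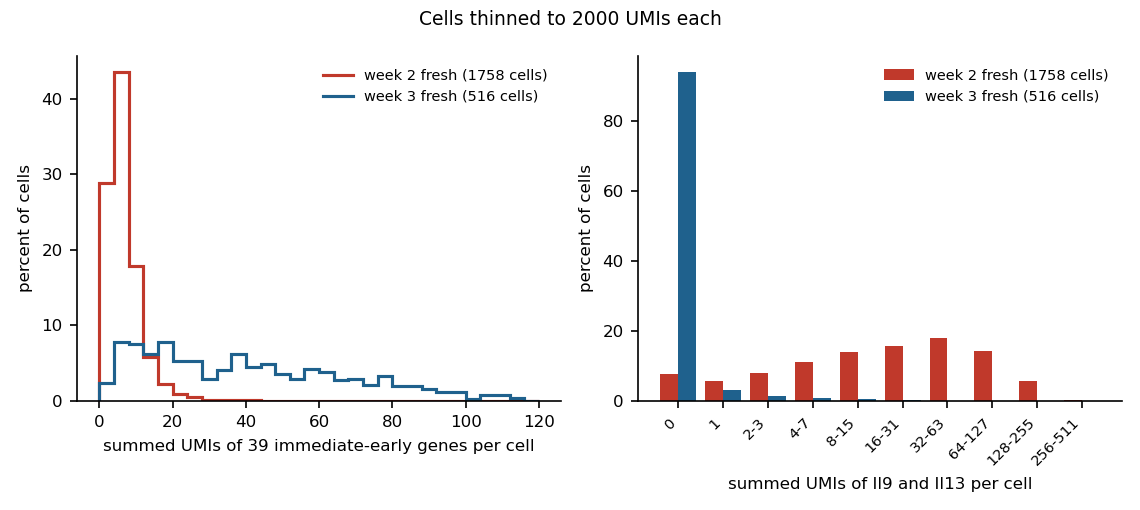
Percent of cells by their summed UMIs of 39 immediate-early genes (left, steps of 4 UMIs) and of *Il9* and *Il13* (right, classes that double in width), each cell thinned to 2000 UMIs, for 1758 week 2 and 516 week 3 cells. The medians are 5 and 36 UMIs on the left and 18.5 and 0 on the right.

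Among other secreted or surface ligands, 5 of 10 compared members of the list of type 1, type 17 and TNF family ligands were at least 2-fold higher in week 2 and 3 in week 3. Of all genes, 23.5% and 17.4% were. Lymphotoxins divided: *Lta* was at 141 and 14.7 CPM, 9.53-fold higher in week 2 (6.49 to 14.6), whereas *Ltb*, the partner chain of the membrane complex, was at 68.4 and 708 CPM, 10.3-fold higher in week 3 (9.65 to 11.1). *Tnfsf4*, which encodes the costimulatory ligand OX40L, was at 31.0 CPM in week 2 and 2.27 CPM in week 3. *Tnfsf11*, the gene of RANKL, was at 8.10 and 164 CPM, and *Tnf* hardly differed, at 86.6 and 102 CPM. Of 6 chemokine genes compared, 3 were higher in week 3, all 3 by more than 16-fold: *Ccl1*, a CCR8 ligand, at 17.1 and 709 CPM, *Cxcl2*, which recruits neutrophils, at 66.4 and 1675 CPM, and *Cxcl1* at 1.41 and 64.7 CPM. *Cxcl3* went the other way, 4.81-fold higher in week 2, but among cells with 2000 to 6000 UMIs its log2 ratio was -2.18. *Ccl1* and *Cxcl2* came from a subset of week 3 cells: a UMI was found in 21.9% and 32.8% of thinned cells, and the tenth of cells with the most held 89.2% and 75.0% of the UMIs.

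The immediate-early genes lay almost uniformly in the week 3 direction. Of 39 genes in 3 lists (AP-1 and ATF factors, EGR, NR4A and KLF factors, and other immediate-early genes), 34 were compared and 30 were at least 2-fold higher in week 3, 28 of them at least 4-fold and 14 at least 16-fold, where 17.4% and 6.64% of all genes passed 2-fold and 4-fold. The median log2 ratio of the 34 was -3.61. Members below 10 CPM in week 2, such as *Fos*, were compared only through their level in week 3. Without the filter on low genes and with 1 CPM added, 30 of 39 were at least 2-fold higher in week 3. In that setting 2172 of 14695 genes were. *Fosb* (chromosome 7 from 19302696 to 19310051) had 2 UMIs in week 2, or 0.0611 CPM, and 743 CPM in week 3, and *Fos* (chromosome 12 from 85473890 to 85477273) 0.703 and 1294 CPM. Both encode partners of JUN proteins in AP-1. The orphan nuclear receptor genes followed, with *Nr4a1* at 6.08 and 454 CPM, *Nr4a2* at 0.0917 (3 UMIs) and 197 CPM, and *Nr4a3* at 0.153 and 153 CPM. *Jun* (36.2 and 528 CPM), *Junb* (592 and 5618 CPM) and *Jund* (393 and 1815 CPM) differed by smaller ratios from higher levels. *Egr1* was at 1.25 and 42.0 CPM, 33.5-fold higher in week 3 (22.6 to 50.3), *Klf2*, a factor of lymphocyte quiescence and recirculation, at 1.53 and 60.7 CPM, and the early activation marker *Cd69* at 31.8 and 446 CPM.

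The 3 members that were higher in week 2 were *Batf*, *Ier3* and *Myc*. *Batf*, a partner of IRF4 in lymphocyte effector differentiation, was at 259 and 26.1 CPM, 9.93-fold higher in week 2 (7.44 to 13.6). *Ier3* was at 189 and 14.7 CPM and *Myc*, a driver of cell growth, at 121 and 46.5 CPM. *Irf4* itself, from the list of ILC2 transcription factors, was at 51.6 and 2.84 CPM. Summed over all 39 genes, the immediate-early level was 2881 CPM in week 2 and 19828 CPM in week 3, beside 17047 CPM in the naïve library and 4217 and 4313 CPM in the cultured ones. At 2000 UMIs per cell, the median week 3 cell had 36 of these UMIs and the median week 2 cell 5, and 3 of 1758 week 2 cells reached the week 3 median. The week 3 cells were spread widely, from 5 UMIs at the 5th percentile to 90 at the 95th, and 32 of 516 lay at or below the week 2 median.

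Genes that encode feedback on these signals lay on the same side. Of 10 compared genes of MAP kinase and calcineurin feedback, 7 were at least 2-fold higher in week 3 and none in week 2. Of all genes, 17.4% and 23.5% were. *Dusp1*, a phosphatase of MAP kinases, was at 7.30 and 868 CPM, 119-fold higher in week 3 (104 to 137), *Spry2* at 1.34 and 72.6 CPM, *Dusp10* at 3.03 and 100.4 CPM, while *Dusp6* was at 17.8 and 18.2 CPM. Members below 10 CPM in week 2, such as *Dusp1*, *Spry2* and *Dusp10*, were compared only through their level in week 3. *Rgs2*, a regulator of G protein signalling, was at 1.34 and 1031 CPM, and *Gem*, a small GTPase, at 1.01 and 358 CPM. The 3 members of the ZFP36 family, which bind AU-rich elements and hasten the decay of cytokine mRNAs, were all higher in week 3: *Zfp36* at 5.90 and 318 CPM, *Zfp36l1* at 41.8 and 850 CPM and *Zfp36l2* at 59.2 and 1099 CPM. No other compared gene of the decay list passed 2-fold, among them *Zc3h12a*, the gene of regnase-1, at 58.2 and 78.8 CPM and *Elavl1*, a stabilizing factor, at 160 and 141 CPM.

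In the NF-kB list 6 of 15 genes were at least 2-fold higher in week 3 and 3 in week 2, where 17.4% and 23.5% of all genes were. *Tnfaip3*, the gene of A20 (32.8 and 710 CPM), *Nfkbiz* (26.2 and 332 CPM) and *Nfkbia* (698 and 2201 CPM) were on the week 3 side. Without the gate, however, where week 3 held the T-lineage barcodes, *Nfkbia* had a log2 ratio of 0.42. The inhibitor gene *Nfkbie*, at 35.3 and 59.0 CPM, did not pass 2-fold. *Nfkbib* (128 and 51.0 CPM), *Bcl3* (32.3 and 5.10 CPM) and the adhesion gene *Icam1* (90.7 and 25.5 CPM) were on the week 2 side. In the STAT list 6 of 13 were higher in week 2, among them *Socs1*, a brake on JAK signalling, at 920 and 76.0 CPM (12.1-fold, 10.2 to 14.5), and *Pim2* at 43.6 and 2.27 CPM. *Stat4* was at 9.38 and 151 CPM and *Pim1* at 271 and 937 CPM, higher in week 3, and *Cish*, a target of STAT5, was at 176 and 168 CPM.

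Most genes that define ILC2s were lower in week 2. Of the 8 ILC2 markers, 7 were at least 2-fold higher in week 3, but 2 of these 7 are the genes of the gate. *Icos*, at 351 and 512 CPM, did not pass. All 8 were detected in both libraries, although the gate itself asked for a UMI of *Gata3* or *Il1rl1* and the detection of these follows from it. *Gata3* (341 and 694 CPM) and *Il1rl1* (57.0 and 433 CPM) were used by the gate, which asked for 1 UMI of either whatever the depth of a cell, and their values are a description. Without the gate the log2 ratio of *Gata3* was 0.83, on the week 2 side, but that setting adds barcodes removed for lacking both ILC2 genes. It also adds 890 week 3 barcodes with 2 or more T-lineage genes, where *Gata3* was at 76.0 CPM. Of 18 compared ILC2 transcription factors 14 were at least 2-fold higher in week 3, where 17.4% of all genes were. *Rora*, needed for ILC2 development, was at 160 and 1133 CPM, *Ets1* at 92.5 and 648 CPM and *Bach2* at 1.89 and 31.2 CPM. *Id2* was at 516 and 711 CPM and did not pass 2-fold. Of 16 cytokine receptor genes 11 were higher in week 3 and none in week 2, among them *Il7r* (168 and 1476 CPM), *Ifngr1* (30.9 and 381 CPM) and *Il17rb*, the receptor for IL-25 (2.11 and 40.3 CPM). The IL-2 receptor chains *Il2ra*, at 322 and 165 CPM, and *Il2rb*, at 38.0 and 26.7 CPM, did not pass 2-fold.

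In the list of neuropeptide, adrenergic and lipid receptors and enzymes, 7 of 11 compared members were at least 2-fold higher in week 3 and none in week 2. Of all genes, 17.4% and 23.5% were. *Calca*, which encodes the neuropeptide CGRP, was at 6.54 and 481 CPM, 73.6-fold higher in week 3 (63.2 to 85.9), and the CGRP receptor subunits *Ramp1* and *Ramp3* were at 71.7 and 590 CPM and 3.24 and 217 CPM. The prostaglandin receptor *Ptger4* was at 63.3 and 53.9 CPM. Of 6 inhibitory receptors compared, *Pdcd1* (8.89 and 60.1 CPM), *Klrg1* (10.6 and 73.2 CPM) and *Cd96* were higher in week 3, and *Havcr2* (25.9 and 2.84 CPM) and *Lgals3* in week 2. Of 14 genes of migration and residency 8 were higher in week 3, with *Cxcr4* at 1.59 and 91.9 CPM, *Ccr8* at 7.61 and 180 CPM and *Ccr2* at 70.1 and 471 CPM.

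Genes linked with quiescence lay on one side: 11 of 13 compared members were at least 2-fold higher in week 3, 9 of them at least 4-fold. Of all genes, 17.4% and 6.64% were. The median log2 ratio of the list was -3.13. It shares members with lists given above, among them *Klf2*, and is not a separate set. *Btg1*, an antiproliferative factor, was at 252 and 2797 CPM, 11.1-fold higher (10.7 to 11.5), and *Tsc22d3*, the glucocorticoid-induced leucine zipper, at 17.4 and 265 CPM. *Foxp1* was at 84.3 and 114 CPM and did not pass. *Arg1*, the arginase of resting lung ILC2s, was at 5.19 and 244 CPM, 47.0-fold higher in week 3 (39.2 to 56.4), and had a UMI in 1.42% and 35.3% of thinned cells. In the same list *Srm*, which makes spermidine, was at 300.3 and 26.7 CPM.

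Several lists of growth and biosynthesis genes lay on the week 2 side. All 14 genes of ribosome biogenesis were at least 2-fold higher in week 2, 9 of them at least 4-fold, where 23.5% and 6.66% of all genes passed. Their median log2 ratio was 2.04, with *Npm1* at 4274 and 1136 CPM, *Ncl* at 2080 and 510 CPM and *Nop16* at 164 and 14.2 CPM. In the thinned cells the median was 16 UMIs of these genes in week 2 and 4 in week 3. The cytosolic ribosomal proteins did not share this difference, since 67 of 77 lay within 2-fold and their median log2 ratio was -0.0042. Without the gate 5 of 14, and among cells with 2000 to 6000 UMIs 7 of 13, were at least 2-fold higher in week 2. Of all genes, 815 of 7134 and 1490 of 6945 were in those settings.

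Glycolysis followed with 10 of 17 genes at least 2-fold higher in week 2 and 1 in week 3, where 23.5% and 17.4% of all genes were. *Pgam1* was at 454 and 50.5 CPM and the lactate transporter *Slc16a3* at 52.3 and 6.81 CPM, while *Vegfa* was at 1.07 and 23.8 CPM. Of 20 genes of secretion and the unfolded protein response 12 were higher in week 2 and none in week 3, among them *Creld2* (121 and 16.4 CPM), *Manf* (811 and 150.3 CPM) and *Xbp1*, the factor of secretory capacity (101 and 35.2 CPM). *Hspa5*, the main chaperone of that compartment, was at 839 and 432 CPM. Of 12 genes of cholesterol and fatty acid synthesis 8 were higher in week 2, with *Idi1* at 118 and 14.2 CPM. Nuclear-encoded genes of the respiratory chain were shifted more weakly, with 33 of 84 higher in week 2 and a median of 0.82, and the 13 mitochondrial ones had a median of -0.86, on the week 3 side.

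The genes of DNA replication and mitosis were at least 2-fold higher in week 2 in 13 of 15 and 6 of 6 compared members, from low levels. Another 9 of the 15 mitosis genes were too low to be compared. All 15 summed to 361 CPM in week 2 and 86.8 CPM in week 3. The filter thus favoured mitosis genes that were high in week 2, and 6 of 6 is a description only. Of all genes compared, 23.5% were at least 2-fold higher in week 2. *Mcm3*, of the replicative helicase, was at 158 and 22.7 CPM, and *Mki67*, which marks cycling cells, at 37.6 and 10.2 CPM. At least 2 UMIs of the 15 mitosis genes were found in 6.48% of thinned week 2 cells and 1.16% of week 3 cells. A UMI of the replication genes was absent from 37.3% of thinned week 2 cells and 70.0% of week 3 cells. The direction of *Mki67* depended on the cells kept: among cells with 4000 to 12000 UMIs it had a log2 ratio of -0.21. Without the gate its ratio was -1.20, where week 3 held the T-lineage barcodes. Without cells with UMIs of 2 or more mitosis genes it was -3.01, but this filter selects on mitosis genes at unequal depth. The filter left 1350 of 1762 week 2 cells and 573 of 582 week 3 cells, so its value cannot decide the direction.

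Further genes were named for the size of their ratio alone. On the week 2 side these were *Hamp*, the gene of the iron hormone hepcidin, at 104 CPM with no UMI in week 3 and found in 4.55% of thinned week 2 cells, *Tph1*, the enzyme of peripheral serotonin synthesis, at 427 and 19.9 CPM, *Rps27l* (1310 and 66.4 CPM) and *Phlda3* (95.2 and 6.24 CPM), both targets of p53, *Gstm1* (110 and 6.24 CPM), *Fabp5* (398 and 25.0 CPM), *Timm10* (121 and 8.51 CPM), *Ly6a* (2187 and 163 CPM) and *Mthfd2*, an enzyme of mitochondrial one-carbon metabolism (103 and 7.94 CPM). *Bax* and *Bbc3*, death genes of the BCL-2 list that p53 also induces, were at 804 and 163 CPM and at 34.9 and 5.67 CPM, while *Bcl2* was at 29.5 and 167 CPM and *Bcl2l11*, the gene of BIM, at 3.54 and 74.3 CPM. On the week 3 side the remaining names were *Kctd12* (1.41 and 127 CPM), *Gm20186* (3.15 and 756 CPM), the T cell receptor delta variable segment *Trdv4* (2.63 and 235 CPM), and *Hspa1a* and *Hspa1b*, near-identical heat shock genes whose reads cannot be assigned with certainty, at 1.93 and 151 CPM and at 3.67 and 274 CPM. The heat shock list was split, since *Hspd1* (1066 and 130 CPM), *Hsp90aa1* (1136 and 264 CPM) and 3 more were higher in week 2. Without the gate, however, where week 3 held the T-lineage barcodes, *Hsp90aa1* had a log2 ratio of -0.67.

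Interferon-induced genes were low in both fresh libraries, at a summed 896 and 314 CPM beside 7856 and 10833 CPM in the cultured libraries of weeks 2 and 3 and 248 CPM in the naïve one. Of 12 compared, 8 were at least 2-fold higher in week 2 and 2 in week 3, where 23.5% and 17.4% of all genes were. The 8 were led by *Gbp2* (85.3 and 11.9 CPM), *Irgm1* and *Ifi47*, which are strongly induced by interferon gamma. The 2 in week 3 were *Irf7* (6.69 and 21.0 CPM) and *Isg20*. Among cells with 2000 to 6000 UMIs these 2 had log2 ratios of 1.37 and 0.37, on the week 2 side. *Isg15* was at 17.2 and 24.4 CPM. In the class I antigen presentation list 8 of 12 genes were within 2-fold, where 59.1% of all genes were, and 4 were higher in week 2 and none in week 3, with *B2m* at 1238 and 1286 CPM and *H2-K1* at 1666 and 1813 CPM. The immunoproteasome subunit *Psmb10* was 2.83-fold higher in week 2.

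**Figure D4:**
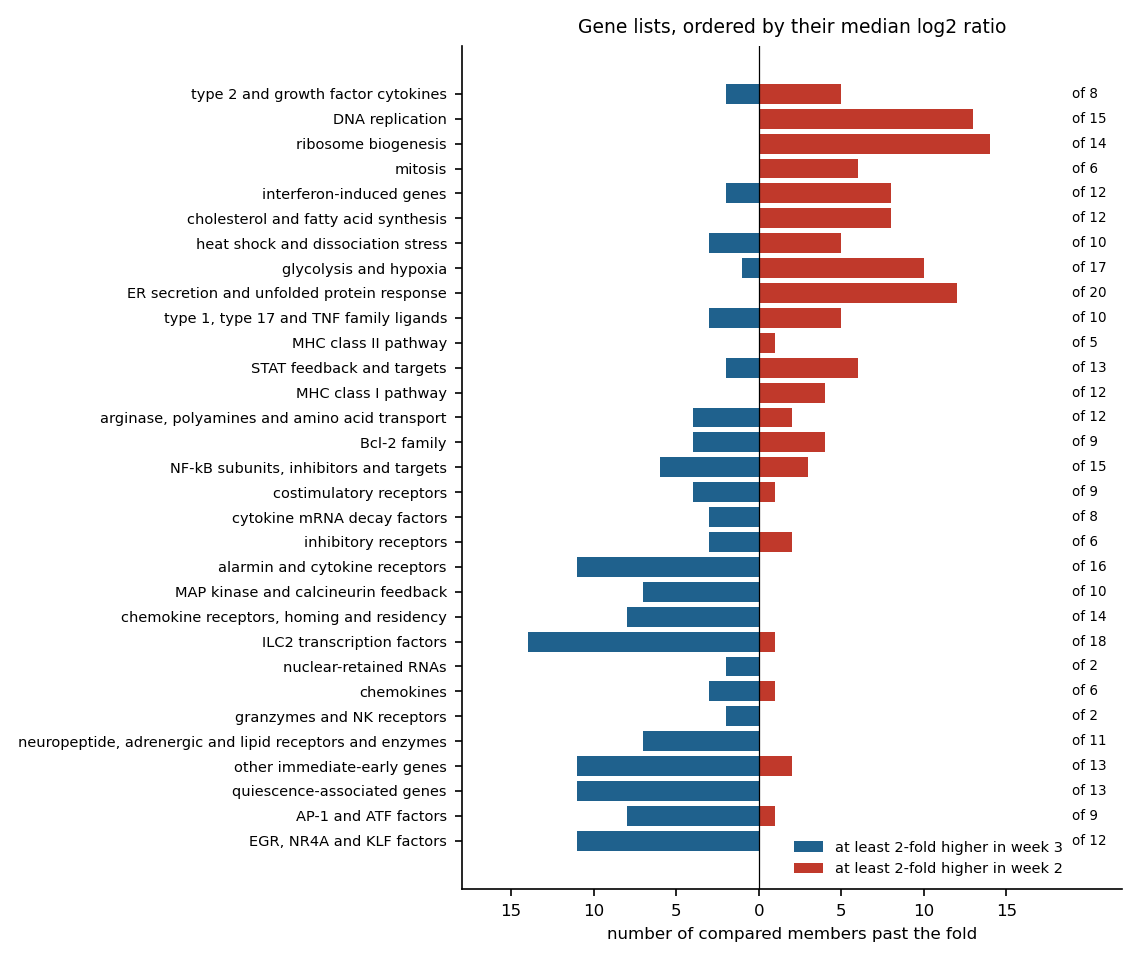
Number of compared members of each gene list at least 2-fold higher in week 3 (blue, to the left) and in week 2 (red, to the right), with the number compared at the right edge, ordered by the median log2 ratio of the list. The 3 immediate-early lists and the quiescence list lie at the bottom, with 8, 11, 11 and 11 members on the week 3 side, and all 14 ribosome biogenesis genes on the week 2 side. Lists can share members.

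Over the 31 lists, 334 of 437 distinct genes were compared, 114 of them at least 2-fold higher in week 2 and 127 in week 3. Of all genes, 23.5% and 17.4% were. Among all compared genes past 4-fold, in a list or not, most lay with week 3 in the naïve library. Of the 457 genes at least 4-fold higher in week 3, the naïve level was nearer to that of week 3 on a log scale for 441, and of the 458 at least 4-fold higher in week 2 for 416. The cultured libraries of weeks 2 and 3 were nearer to week 2 for 323 and 308 of the 457 genes, and for 261 and 242 of the 458. No such count was made over all compared genes. Depth followed the same order. Gated cells had a median of 4519 UMIs in the naïve library and 2864 in fresh week 3. The median was 16310 in fresh week 2 and 14209 and 12437.5 in the cultured libraries of weeks 2 and 3. The part of depth in these counts was not tested. All 30 immediate-early genes on the week 3 side except 3 and 4 were nearer to week 2 in the cultured libraries. Ribosome biogenesis differed from this, since all 14 genes were nearer to week 3 in both cultured libraries, with summed levels of 2796 and 3040 CPM beside 9007 CPM in fresh week 2 cells and 2301 CPM in week 3.

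Depth moved with the contrast, and its part in the difference was not tested. With the cells of each library split into 4 equal depth bins by UMIs per cell, *Il13* lay between 8249 and 9710 CPM in week 2 and went from 28.0 CPM in the shallowest to 169 CPM in the deepest bin of week 3, and *Fos* lay between 0.333 and 2.58 CPM in week 2 and between 1102 and 1474 CPM in week 3. These ranges of levels do not overlap. The deepest bin of week 3 had a median of 3976.5 UMIs and the shallowest of week 2 one of 8201, so the bins are not matched in depth. In week 2 *Il9* rose with depth, from 2704 CPM in the shallowest to 18176 CPM in the deepest bin. Its log2 ratio of 12.87 over all gated cells was 9.19 among cells with 2000 to 6000 UMIs and 8.31 with 4000 to 12000. Each of these 3 values is a bound against 3 UMIs in week 3. The nuclear RNA *Malat1* did depend on depth within both libraries, from 9276 CPM in the shallowest to 4183 CPM in the deepest bin of week 2 and from 30981 to 19242 CPM in week 3, and its levels of 5313 and 24015 CPM stood 4.52-fold apart. Over all gated cells its log2 ratio was -2.18. It was -0.77 among cells with 2000 to 6000 UMIs, -0.996 with 4000 to 12000, and -1.87 with cells thinned to 2000 UMIs before the gate. The window from 2000 to 6000 held 476040 UMIs in 100 week 2 cells and 1574114 in 506 week 3 cells, so depth was closer but not equal. *Areg* in week 3 was at 595 and 398 CPM in the shallower 2 bins and at 1205 and 1437 CPM in the deeper 2. *Npm1* rose from 2744 CPM in the shallowest to 4969 CPM in the deepest bin of week 2, and was at 959 and 1186 CPM in those of week 3. With genes split into 4 equal bins by intron length, the 1720 with the longest introns (a median of 81961 bases) had a median log2 ratio of -0.41 and the 1720 with the shortest (2295 bases) one of 0.41. When cells were thinned to 2000 UMIs before the gate, which kept 986 and 459 cells, the immediate-early count was 30 of 34, and with 2000 to 6000 UMIs in both libraries 28 of 34. Of all genes, 1127 of 6830 and 734 of 6945 were at least 2-fold higher in week 3 in these settings. The log2 ratio of *Il13* was then 6.95 and 6.42 and that of *Fos* -9.78 and -7.74.

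**Figure D5:**
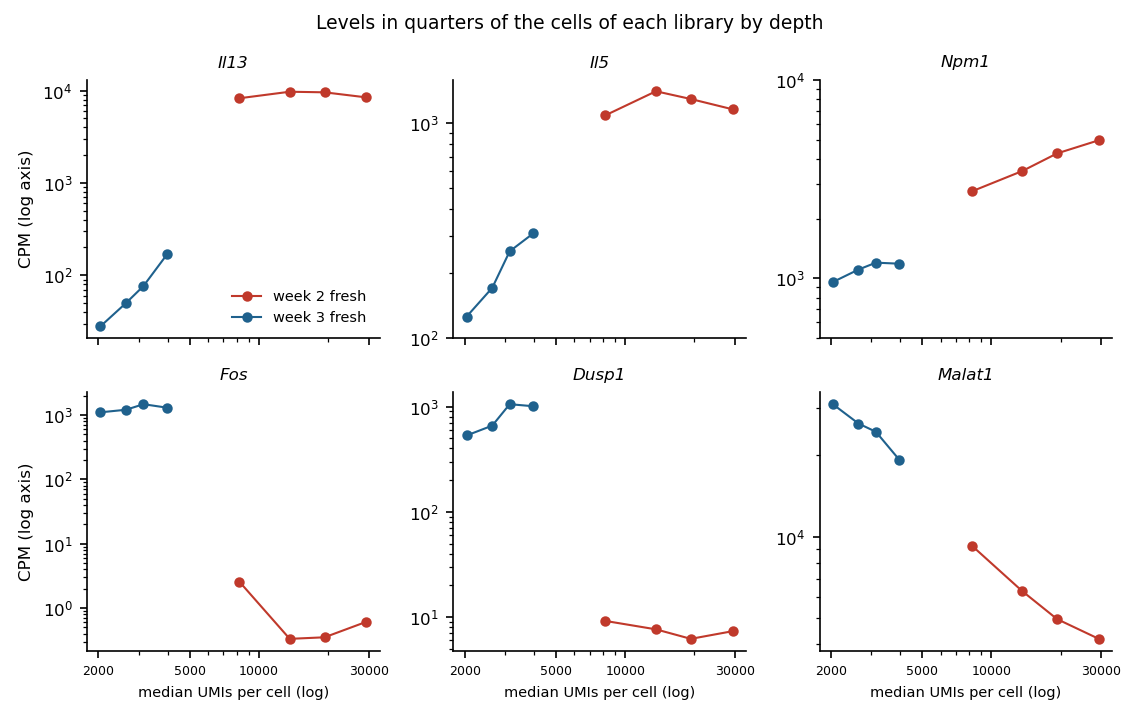
CPM (log axis) of 6 genes in 4 depth bins of the cells of each library, against the median UMIs per cell of the bin (log axis), with 440 or 441 cells a bin in week 2 and 145 or 146 in week 3. The bin medians of the libraries do not overlap in depth, all 4 bins of week 2 lie above those of week 3 for *Il13*, *Il5* and *Npm1* and below them for *Fos*, *Dusp1* and *Malat1*, and *Malat1* is lower in deeper bins of both.

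Outside the T cell list, markers of other cells were low in the gated cells of both libraries and mostly higher in week 3. The T cell list includes the 8 T-lineage genes of the gate. These summed to 2.41 and 22.1 CPM in weeks 2 and 3, low levels that follow from the gate itself. The 12 T cell and thymocyte genes summed to 238 CPM in week 2 and 837 CPM in week 3, beside 733 CPM in the naïve library, mostly from *Trbc2* (196 and 561 CPM) and *Cd3g* (38.0 and 239 CPM), which ILC2s also transcribe. The mast cell protease gene *Cpa3* had no UMI in week 2 and 41.4 CPM in week 3, while *Mcpt8*, *Ms4a2*, *Fcer1a* and *Gata2* were at 0 in both libraries. With *Hdc*, these 6 mast cell or basophil genes summed to 0.0306 and 44.2 CPM. The 3 eosinophil genes were at 0 in both, and the NK or ILC1 list summed to 0.947 and 0.567 CPM. The epithelial list summed to 20.7 and 49.3 CPM, the myeloid list to 0.0917 and 7.37 CPM, the B cell list to 9.04 and 66.9 CPM, the granulocyte list to 0.122 and 1.13 CPM, the endothelial list to 18.6 and 14.7 CPM, the erythroid list to 3.51 and 42.5 CPM, and the fibroblast list to 0 in both. The part of such RNA in the results was not tested. In the 890 week 3 barcodes with 2 or more T-lineage genes *Fos* was at 390.1 CPM, *Dusp1* at 199 CPM and *Hspa1a* at 974 CPM, so that *Hspa1a* was higher outside the gate than in it. Of the week 3 barcodes without either ILC2 gene, 129 had at most 1 T-lineage gene, and in these *Fos* was at 1320 CPM and *Il13* at 39.5 CPM.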

How the data were processed

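Lung ILC2s were profiled by droplet single-cell RNA-seq in 5 libraries, 1 per group. The authors deposited matrices of UMI counts per gene and barcode. The submitters' processing notes name Cell Ranger 3.0.2, Seurat 3 and GRCm38, and per the file headers the naïve matrix was made with Cell Ranger 6.0.0. Barcodes were gated as described above. Doublets were not removed and no caller was run, and leaving out the deepest 5% of cells was an alternative. Counts were summed over the gated cells of a library and scaled to CPM, and genes with a mean of at least 10 CPM were compared. No pseudocount was used, and a gene at 0 was set to a floor of 3 UMIs. Named genes were the 15 with the largest log2 ratio in each direction at a mean of at least 50 CPM, without gate and mitochondrial genes, and members of gene lists at a mean of at least 10 CPM. The members and lists were chosen with earlier results of these data known. For shares, cells were thinned to 2000 UMIs (seed 1). Python 3.11.15, numpy 2.4.6, scipy 1.17.1, pandas 2.3.3 and matplotlib 3.10.9 were used, and edgeR 4.0.16 in R 4.3.3 for TMM factors only. The ratios and their intervals were tested on simulated Poisson counts with known ratios. The gate, lists, depth bins and motif search were not tested in this way.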

Additional observations from a re-analysis of the deposited data

How the results depend on the processing

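Results were recomputed under 16 other settings and 3 more chosen after seeing the data (cells with 2000 to 6000 UMIs, cells without a UMI of another cell type's markers, and *Il9* and *Il13* left out of the total). The 30 genes named for their ratio stayed past 2-fold in the same direction in all 19 of them, and 103 of the 111 genes of the text that passed 2-fold kept their direction in all of them. The 30 genes were chosen for the largest ratios in these same data. Some settings leave a ratio as it was or shift all ratios alike, so this outcome is no independent support. Without a filter on low genes and with 1 CPM added, 2172 genes were at least 2-fold higher in week 3. At a mean of at least 50 CPM, which left 2593 genes, 736 and 423 were at least 2-fold higher in weeks 2 and 3, 209 and 192 at least 4-fold, and 147 list members at least 2-fold either way. The number of list members compared at that level is not given here, so the 147 is no result about the lists. Without the gate, 815 of 7134 genes were at least 2-fold and 208 at least 4-fold higher in week 2, with 5 ribosome biogenesis genes at least 2-fold higher. Log2 ratios turned to 0.57 for *Areg*, 0.83 for *Gata3*, 0.42 for *Nfkbia*, -0.67 for *Hsp90aa1* and -1.20 for *Mki67*. That setting compared other cells, since 890 of its 1601 week 3 barcodes had 2 or more T-lineage genes. In these 890, *Gata3* was at 76.0 CPM and *Areg* at 41.1 CPM. Among cells with 2000 to 6000 UMIs, 734 genes were at least 2-fold higher in week 3 and 273 and 269 at least 4-fold higher in weeks 2 and 3. There 7 ribosome biogenesis genes were at least 2-fold higher in week 2, as were 1490 of 6945 genes. Log2 ratios were -2.18 for *Cxcl3*, 1.37 for *Irf7* and 0.37 for *Isg20*. *Mki67* was also at -0.21 among cells with 4000 to 12000 UMIs and at -0.79 without cells with a UMI of another cell type's markers, where *Isg20* was at 0.46. Without cycling cells, a filter on mitosis genes themselves, *Mki67* was at -3.01. At 50 CPM fewer genes were compared, and their median log2 ratio was 0.32, against 0.15 in the main setting. The causes of these changes were not tested. No paired analysis was possible because each group had 1 library, and for the same reason none could be left out. In week 3, 1 UMI was worth 0.567 CPM, which limits ratios of genes low there.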
